A study of Mus musculus with 16 samples.

Results

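The lysosomal genes described here are 35 genes for lysosomal hydrolases, their activator and helper proteins, proteins of the lysosomal membrane, the regulator Tfeb and progranulin, out of 18193 genes that the array names by a single symbol. They were taken from a written list of gene symbols, drawn up with earlier results of these data known, and the brightest probe set over all arrays stood for each gene. Of the 35 genes, 34 passed the filter for testing, a log2 value over 4 on at least 4 arrays. Ctsk, for cathepsin K, the collagen-degrading protease of osteoclasts, did not pass, with a mean of 3.12 log2 and 0 arrays over 4.

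RNA was taken from the hippocampus of 16 male mice aged 12 months and hybridised to 16 Affymetrix arrays, 1 mouse per array and 4 mice per group. AbPP antisense mice were SAMP8 mice that received, by the intravenous route, an antisense oligonucleotide against the amyloid beta precursor protein (AbPP). Random antisense mice were SAMP8 mice that received an oligonucleotide of random sequence by the same route. SAMP8 mice, a line with accelerated senescence and memory deficits at this age, were untreated. Control mice were untreated offspring of a 50% backcross between SAMP8 and CD-1 mice and had no memory deficits, so they share part of the SAMP8 genome and differ from SAMP8 by many alleles at once. The oligonucleotides were given to the whole animal, and the arrays measured whole hippocampus. The comparison of SAMP8 with Control addresses the 2 lines, and that of AbPP antisense with Random antisense addresses the target sequence apart from oligonucleotide treatment as such. The comparisons share arrays: AbPP antisense enters 2 of them, Random antisense 2, and untreated SAMP8 3 of the 4.

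Lysosomes are acidic organelles in which hydrolases break down proteins, glycans and lipids delivered by endocytosis, phagocytosis and autophagy. In neurons they are one of the places where AbPP and its fragments are degraded, and in microglia they digest engulfed material. Inherited loss of single lysosomal enzymes leads to storage diseases, many of which damage the brain. The transcription factor TFEB binds a short palindromic element in the promoters of many lysosomal genes, the CLEAR element, whose core is CACGTG.

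The promoter windows show how widely the listed genes carry that element. RefSeq promoters (build GRCm38.p6, 250 bases before to 50 bases after each annotated start) were matched to 30 of the 35 genes, with 35 promoters in all. Ctsb, Ctsh, Galns, Asah1 and Npc1 had no entry. The stretches shown are those of the genes with more than 1 core motif and of Ctsl, which figures in the results below. They read 5′ to 3′ on the strand of the gene, and capitals mark every CACGTG.
Cln3, chr7:126583337-126583400, minus strand: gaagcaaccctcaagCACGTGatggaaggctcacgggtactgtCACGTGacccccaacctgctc
Ctsa, chr2:164833746-164833798, plus strand: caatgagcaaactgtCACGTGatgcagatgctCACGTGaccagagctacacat
Gla, chrX:134601179-134601247, minus strand: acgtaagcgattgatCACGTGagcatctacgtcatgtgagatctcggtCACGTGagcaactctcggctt
Mcoln1, chr8:3500433-3500494, plus strand: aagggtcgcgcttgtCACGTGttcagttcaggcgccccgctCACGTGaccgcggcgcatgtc
Lamp1, chr8:13159085-13159166, plus strand: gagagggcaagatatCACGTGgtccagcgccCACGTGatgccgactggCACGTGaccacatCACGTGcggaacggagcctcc
Ctsd, chr7:142387905-142388077, minus strand: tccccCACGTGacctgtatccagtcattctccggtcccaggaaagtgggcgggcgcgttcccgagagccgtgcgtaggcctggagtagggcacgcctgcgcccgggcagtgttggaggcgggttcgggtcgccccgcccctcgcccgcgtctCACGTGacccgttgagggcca
Ctsl, chr13:64370736-64370770, minus strand: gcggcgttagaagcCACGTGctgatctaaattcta

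Both strands were searched, and each shorter motif lies inside the longer one. The palindrome TCACGTGA occurred in the promoters of 5 of the 30 lysosomal genes with a promoter (16.7%), which were Cln3, Ctsa, Ctsd, Gla and Mcoln1. It occurred in 1.63% of the 14453 array genes with a promoter and in 1.12% of all 27025 genes with one. The motif TCACGTG occurred in 10 of the 30 genes (33.3%), against 5.8% of array genes, and the core CACGTG in 12 (40%), against 10.2%. Of 59 further lysosomal genes with a promoter, from lists described below, 15.3% held TCACGTGA, 23.7% TCACGTG and 23.7% CACGTG. Median G and C content was 56.7% over the promoters of the listed genes and 58.3% over those of array genes. These shares describe letters in a window of 300 bases and no binding was measured.

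App, the gene for AbPP and the target of the antisense, read 14.19, 14.32, 14.26 and 13.89 log2 on its brightest probe set in AbPP antisense mice, against 14.43, 14.39, 14.37 and 14.34 in Random antisense mice. All AbPP antisense arrays lay lower, by -0.22 (SE 0.13, adjusted p = 0.503), or -0.13 without AbPP antisense 4 and Control 4, and App did not pass the threshold. On its other tested probe set the difference was -1.05 (SE 0.43, adjusted p = 0.359), or -0.41 (adjusted p = 0.121) without AbPP antisense 4 and Control 4. Random antisense 1 carries a treatment label of none, while its title places it with the random oligonucleotide, and the title was followed.

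The lists of hippocampal tissue markers had median levels over 4 log2 on all arrays, although the hippocampal neuron marker Spink8 read 2.78 on AbPP antisense 2. The median level of the pan-neuronal markers lay between 12.72 and 13.57 log2 on the 16 arrays, and that of 7 hippocampal neuron markers between 6.91 and 9.36. Arrays AbPP antisense 4 and Control 4 stood apart from the rest. On AbPP antisense 4 the 3′ minus 5′ signal of the beta-actin control probe sets was 3.89 log2, against 1.21 to 1.60 on the other AbPP antisense arrays and 0.84 to 1.36 on the other 12. On Control 4 the median level of the pan-leukocyte markers was 12.04 log2, against 5.64 to 6.97 on the other 15 arrays. The choroid plexus markers also moved with a group: their median level was 3.55 to 6.37 log2 on the AbPP antisense arrays, against 6.94 to 8.17 in Random antisense mice. The main counts of listed genes below are therefore given also without AbPP antisense 4 and Control 4.

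No gene of the 34 passed an adjusted p of 0.05 in the limma fit, in any of the 4 comparisons or in the F test over the 4 groups. In AbPP antisense against Random antisense, 0 of the 34 were called, against 0.0837% of 23905 probe sets tested. Against untreated SAMP8 the background was 0.289%, for Random antisense against SAMP8 it was 0%, for SAMP8 against Control 0.36%, and for the F test 0.849%. Without AbPP antisense 4 and Control 4 the calls were again 0 of 34 in each, beside backgrounds of 0.838%, 1.71%, 0%, 0.455% and 1.98% of 23741 probe sets in the same order. By 1 probe set per gene, with all arrays, 3, 11, 0 and 26 of 11464 genes were called in the 4 comparisons. A count of 0 of 34 lies near each of these backgrounds.

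At an unadjusted p under 0.05, AbPP antisense against Random antisense held 2 of the 34 genes (5.88%), Ctsl and Cln3, against 12.3% of probe sets. AbPP antisense against SAMP8 held the same 2 genes (5.88%), against 14.7%. Random antisense against SAMP8 held 0, against 1.12%. SAMP8 against Control held 2 (5.88%), Ppt1 and Gusb, against 4.38%. The F test held 4, which were Cln3, Ppt1, Ctsl and Npc1, against 14% of probe sets. By 1 probe set per gene, as the 34 were counted, the 4 comparisons held 1012, 1145, 119 and 432 of 11464 genes. With AbPP antisense 4 and Control 4 left out, the 4 comparisons held 5 (14.7%), 5 (14.7%), 0 and 4 (11.8%) of the 34 genes in the same order, against 16.7%, 17.9%, 4.96% and 5.72% of probe sets. The lowest adjusted p values were 0.359 for Cln3 and 0.166 for Ctsl in the AbPP antisense comparisons, 1 in Random antisense against SAMP8 and 0.944 for Ppt1 in SAMP8 against Control (limma). In the F test the lowest was 0.149 for Cln3, followed by 0.158 for Ppt1, and each of these became a call when 1 array was left out: Cln3 without AbPP antisense 3 (adjusted p = 0.0396) and Ppt1 without AbPP antisense 2 (0.0444).

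The data bound how large a difference could be on the brightest probe set of each gene. The 95% confidence interval of the difference lay within 1 log2 of 0 for 30 of the 34 genes in AbPP antisense against Random antisense, for 30 against SAMP8, for 33 in Random antisense against SAMP8 and for 30 in SAMP8 against Control. It lay within 0.5 log2 of 0 for 21, 19, 20 and 17 genes in the same order, and for 25, 26, 31 and 28 without AbPP antisense 4 and Control 4. The median SE of a difference was 0.18 log2. A difference of that size in a single gene was thus not detectable with 4 arrays per group, while a change of 1 log2 lay outside the interval for most genes. These intervals do not bound other probe sets. Further ones of Ctsb, Psap, Gla and Lamp2 differed by -0.80, -0.75, -0.54 and -0.53 from Random antisense. The intervals of the brightest ones began at -0.39, -0.32, -0.27 and -0.19. Without AbPP antisense 4 and Control 4 the further probe sets differed by -0.40, -0.47, -0.65 and -0.13.

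**Figure D1:**
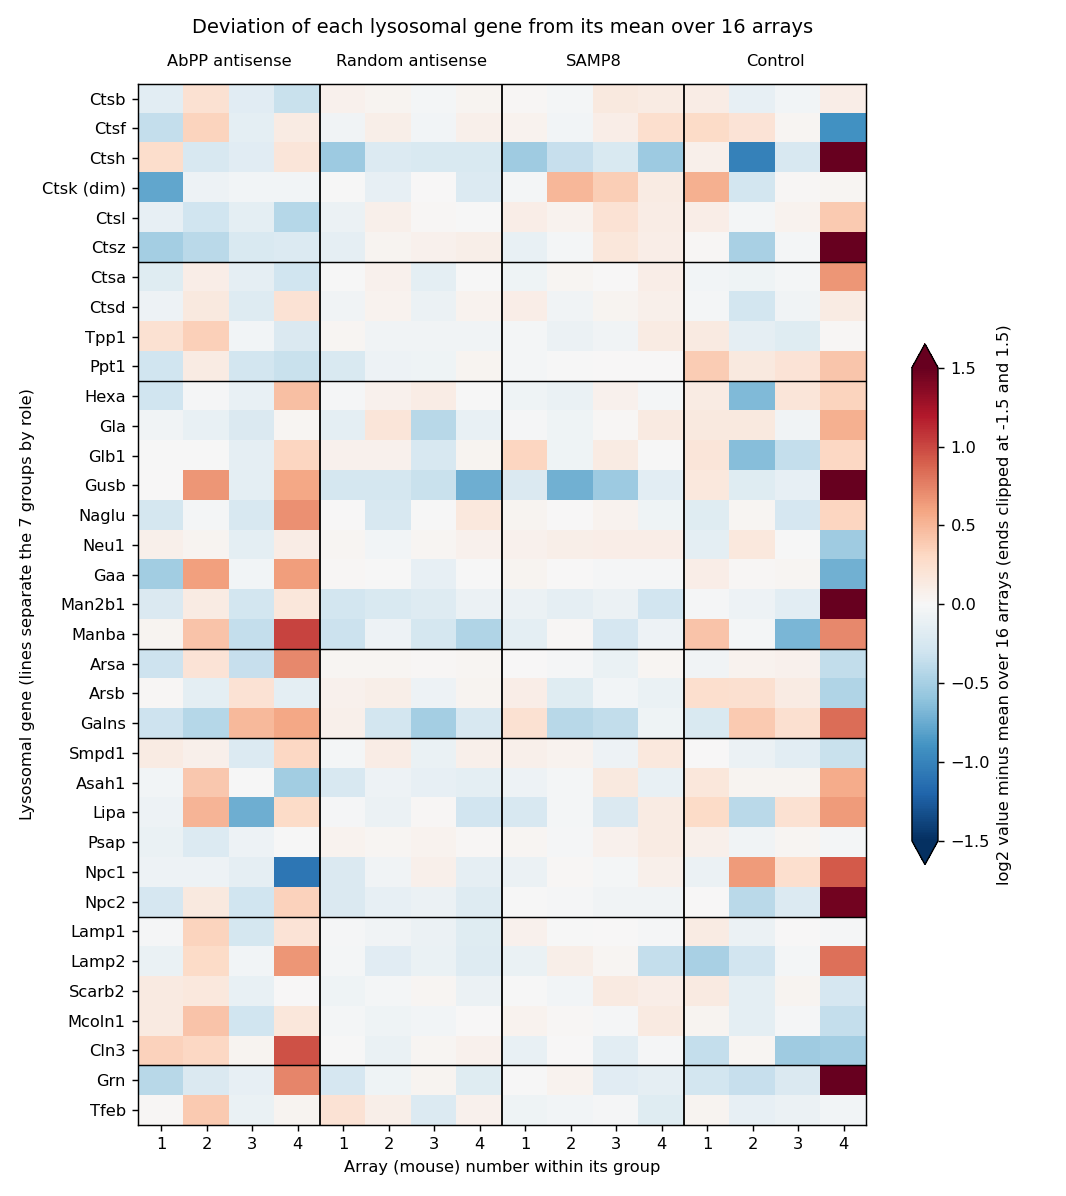
Deviation of each of the 35 lysosomal genes from its own mean over 16 arrays, in log2, with colours clipped at -1.5 and 1.5; columns are the 4 arrays of each group and lines separate 7 groups of genes by role. Control 4 and AbPP antisense 4 carry most of the strong colours, and the Random antisense and SAMP8 columns are pale.

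Over the 34 genes, the median difference of AbPP antisense minus Random antisense was 0.07 log2 with 24 genes above 0, beside 0.04 over all 11464 genes tested. It was -0.00 with 16 above 0 when AbPP antisense 4 and Control 4 were left out. AbPP antisense minus SAMP8 had a median of 0.04 with 21 above 0, beside 0.03 over all genes, and -0.07 with 15 above 0 without the 2 arrays. Random antisense minus SAMP8 had a median of -0.05 with 7 above 0, beside -0.01 over all genes. All 34 differences there lay between -0.17 and 0.11. SAMP8 minus Control had a median of -0.02 with 15 above 0, beside 0.04 over all genes, and 0.03 with 18 above 0 without the 2 arrays. With all arrays, 56.8%, 55.2%, 46.6% and 60.2% of all 11464 genes lay above 0 in the 4 comparisons in the same order.

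Groups of 4 arrays that do not overlap were also counted. AbPP antisense did not overlap Random antisense for 4 of the 34 genes (11.8%), against 6.94% of all genes: Ctsl, Ctsz and Psap lay lower and Gusb higher in AbPP antisense mice. AbPP antisense did not overlap untreated SAMP8 for 4 (11.8%, against 6.93%), with Ctsl and Ctsz lower and Gusb and Cln3 higher. Random antisense lay below SAMP8 on all arrays for Neu1, Npc2 and Lamp1 (8.82%, against 9.07%). SAMP8 lay below Control on all arrays for Ppt1 alone (2.94%, against 4.52%). The counts without AbPP antisense 4 and Control 4 were 6 (17.6%), 5 (14.7%), 3 (8.82%) and 3 (8.82%), against 12.5%, 11.1%, 9.11% and 9.38% of all genes. Hexa, lower, and Asah1, higher, joined the first, Psap, lower, the second, and Arsb, lower, and Grn, higher, the last. These counts rest on 1 to 6 genes each, and their distance from the background was not tested.

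The listed cysteine cathepsins, proteases that cleave proteins at acidic pH, were the role group with the highest share of negative differences from Random antisense. Of 5 tested, 4 had a negative difference of AbPP antisense minus Random antisense, with a median of -0.14 log2, and 4 were negative against SAMP8, with a median of -0.17. Without AbPP antisense 4 and Control 4 the count was again 4 of 5 in each, with medians of -0.07 and -0.15. None passed the adjusted threshold.

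Ctsl, for cathepsin L, an endopeptidase active in most cells, read 11.13, 10.95, 11.10 and 10.83 log2 on the arrays AbPP antisense 1 to 4. Its values were 11.17, 11.33, 11.27 and 11.24 in Random antisense mice, 11.36, 11.31, 11.47 and 11.36 in SAMP8 mice, and 11.35, 11.22, 11.31 and 11.65 in Control mice. All 4 AbPP antisense arrays lay below the 12 others. The difference was -0.25 (SE 0.11, adjusted p = 0.391 in limma) from Random antisense and -0.37 (SE 0.11, adjusted p = 0.166) from SAMP8, and each exact permutation p was 0.0286, the smallest that 4 against 4 arrays can give. Without AbPP antisense 4 and Control 4 the differences were -0.19 (adjusted p = 0.242) and -0.31 (adjusted p = 0.0648). Between SAMP8 and Control it was -0.01.

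Ctsz, for cathepsin Z, a carboxypeptidase, was picked out after its values were seen. It read 10.75, 10.86, 11.03 and 11.05 log2 on the AbPP antisense arrays, and 11.12, 11.29, 11.32 and 11.34 in Random antisense mice. The 2 groups did not overlap. The difference was -0.35 (SE 0.32, adjusted p = 0.699) with all arrays and -0.39 (adjusted p = 0.157) without AbPP antisense 4 and Control 4. The wide error comes with Control 4, which read 12.92 where Controls 1 to 3 read 11.27, 10.77 and 11.22. The 2 other tested probe sets of Ctsz differed by -0.03 and -0.19.

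Ctsb, for cathepsin B, an abundant lysosomal protease of neurons and glia, read 12.57, 12.95, 12.56 and 12.39 log2 in AbPP antisense mice and 12.79, 12.77, 12.69 and 12.77 in Random antisense mice. The groups overlapped, since AbPP antisense 2 was the highest of the 16 arrays and AbPP antisense 4 the lowest. The difference was -0.14 (SE 0.12, adjusted p = 0.672). A second probe set of Ctsb gave a larger one: it read 11.61, 12.01, 12.09 and 10.31 in AbPP antisense mice, and 12.29, 12.32, 12.31 and 12.29 in Random antisense mice. Its difference was -0.80 (adjusted p = 0.298), and -0.40 without AbPP antisense 4 and Control 4.

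Cathepsin F and cathepsin H complete the listed group. Ctsf averaged 9.03 ± 0.30 log2 (SD, n = 4) in AbPP antisense mice and 9.06 ± 0.08 in Random antisense mice. Ctsh, an aminopeptidase, averaged 8.05 ± 0.25 in AbPP antisense mice and 7.74 ± 0.16 in Random antisense mice. The difference of 0.31 was the single positive one among the listed cysteine cathepsins that were tested. The family as a whole had no common direction. Ctsc, Ctso and Ctss, cysteine cathepsins outside this list, also had positive differences from Random antisense, with Ctso at 0.46.

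**Figure D2:**
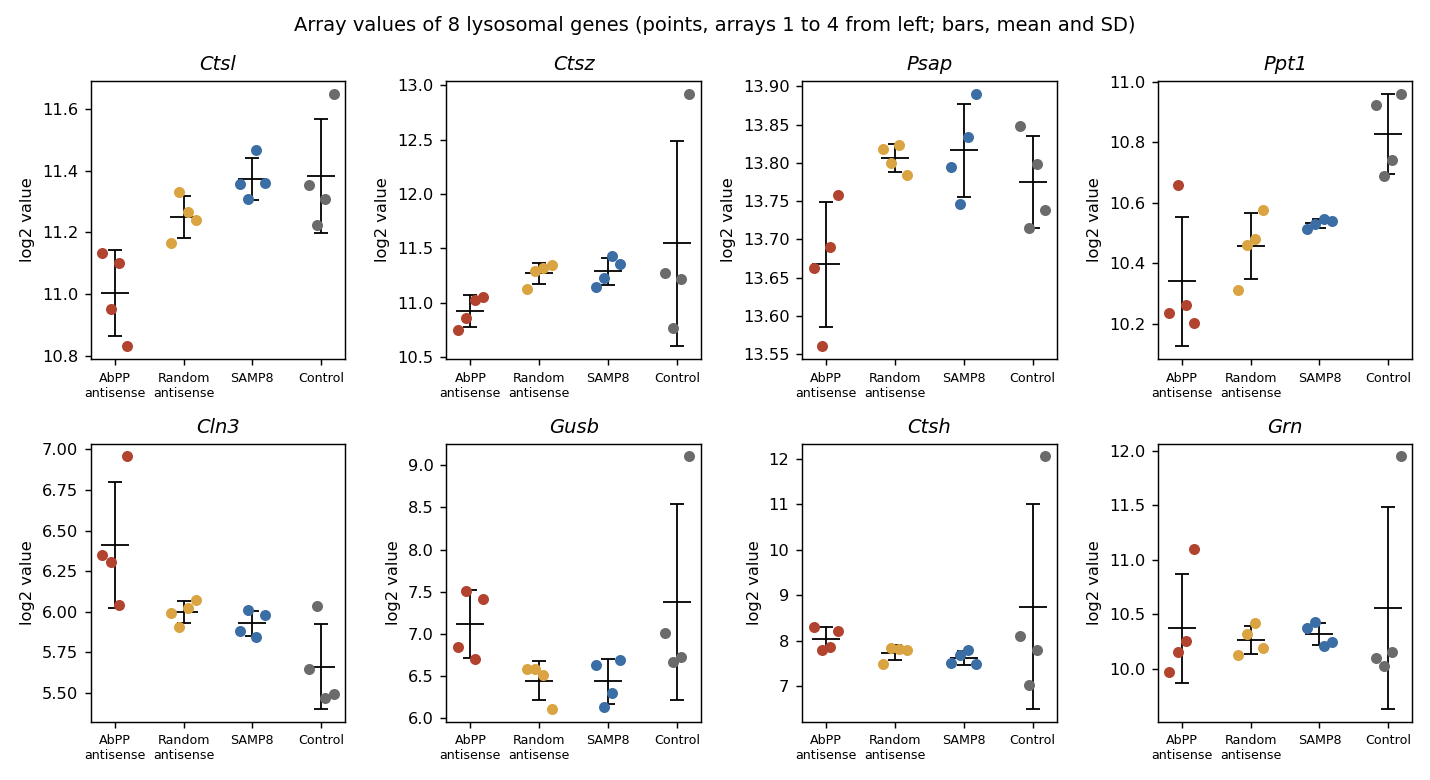
The log2 value of 8 lysosomal genes on each array, with arrays 1 to 4 of a group from left to right; black bars give the mean and SD of 4 arrays. For Ctsl, Ctsz and Psap the AbPP antisense points lie below the Random antisense points, for Gusb above them, and for Ctsh, Gusb, Grn and Ctsz 1 Control point lies far above its group.

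None of the other proteases, nor the thioesterase Ppt1, passed the threshold in the AbPP antisense comparisons. Ctsd, for cathepsin D, the main aspartic protease of lysosomes, averaged 11.41 ± 0.19 log2 (SD, n = 4) in AbPP antisense mice and 11.38 ± 0.07 in Random antisense mice, a difference of 0.03 with a 95% interval of -0.22 to 0.28. Ctsa, a carboxypeptidase that also protects the sialidase Neu1, differed by -0.10. Tpp1, which removes tripeptides from protein ends and whose loss causes a childhood neuronal ceroid lipofuscinosis, differed by 0.11, or by 0.22 without AbPP antisense 4 and Control 4.

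Ppt1 removes palmitate from proteins, and its loss causes the infantile form of that disease. It was the listed gene with the smallest p between the lines. It read 10.51, 10.53, 10.55 and 10.54 log2 in SAMP8 mice, against 10.92, 10.69, 10.74 and 10.96 in Control mice, so each SAMP8 array lay below each Control array. The difference was -0.30 (SE 0.12, adjusted p = 0.944 in limma, exact permutation p = 0.0286). The value is not borne by all probe sets of the gene. Of these, 3 others were tested, with SAMP8 minus Control differences of -0.13, 0.39 and 0.49. Their mean with the first gives 0.11. Those at 0.39 and 0.49 had means of 5.21 and 5.12 log2 over the 16 arrays. The first had 10.54 and that at -0.13 had 9.45. Without Control 4 and AbPP antisense 4 the 3 others differed by -0.11, 0.25 and 0.39, and the first by -0.25.

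In treated mice Ppt1 read 10.24, 10.66, 10.26 and 10.20 log2 in AbPP antisense mice and 10.31, 10.46, 10.48 and 10.58 in Random antisense mice. Of the AbPP antisense arrays, 3 lay below all SAMP8 arrays and AbPP antisense 2 above them. AbPP antisense minus SAMP8 was -0.19 (SE 0.12, adjusted p = 0.46). A second probe set differed more, by -0.52 from Random antisense and -0.65 from SAMP8 (adjusted p = 0.353 and 0.19), and by -0.24 and -0.37 without AbPP antisense 4 and Control 4.

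The glycosidases trim sugars from glycoproteins, glycolipids and glycosaminoglycans. AbPP antisense minus Random antisense was positive for 8 of the 9, with a median of 0.06 log2, beside 56.8% of all genes. Without AbPP antisense 4 and Control 4 it was positive for 4 of the 9. Gusb, for beta-glucuronidase, and Manba, for beta-mannosidase, had the largest differences.

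Gusb read 6.85, 7.51, 6.70 and 7.42 log2 in AbPP antisense mice. It read 6.58, 6.58, 6.51 and 6.11 in Random antisense mice, 6.63, 6.13, 6.30 and 6.69 in SAMP8 mice, and 7.003, 6.66, 6.73 and 9.11 in Control mice. All AbPP antisense arrays lay above all Random antisense and SAMP8 arrays. The difference was 0.67 (SE 0.42, adjusted p = 0.541, exact permutation p = 0.0286) from Random antisense and 0.68 from SAMP8. A second probe set of Gusb gave -0.24 and -0.22, with AbPP antisense 4 the lowest array at 5.38, and 0.10 and 0.11 without AbPP antisense 4 and Control 4, so the direction on that probe set turned with those arrays. SAMP8 minus Control was -0.94 (SE 0.42, adjusted p = 0.999) with all arrays, and -0.36 without Control 4, so that 1 array carried most of that value.

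Manba read 6.01, 6.40, 5.61 and 6.98 log2 in AbPP antisense mice and 5.65, 5.89, 5.71 and 5.52 in Random antisense mice. The groups overlapped through AbPP antisense 3. The difference was 0.56 (SE 0.29, adjusted p = 0.455), and 0.32 without AbPP antisense 4, its highest array.

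With all arrays the remaining glycosidases differed by at most 0.21 log2 between AbPP antisense and Random antisense on their brightest probe sets. Hexa, the ganglioside-degrading hexosaminidase subunit lost in Tay-Sachs disease, differed by -0.03. It differed by -0.18 (adjusted p = 0.623) without AbPP antisense 4 and Control 4, and the 3 AbPP antisense arrays left, at 9.71, 9.99 and 9.90, lay just below Random antisense, at 9.99, 10.07, 10.12 and 10.002. Gla, the alpha-galactosidase lost in Fabry disease, differed by 0.04. A second probe set of Gla differed by -0.54 (adjusted p = 0.465 in limma), or by -0.65 (adjusted p = 0.262) without AbPP antisense 4 and Control 4. That probe set read 6.18, 4.53, 4.93 and 5.65 in AbPP antisense mice, against 5.87, 5.79, 5.85 and 5.94 in Random antisense mice. Glb1, the beta-galactosidase read out as a stain for senescent cells, differed by 0.06.

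Naglu, which degrades heparan sulfate, differed by 0.06, or by -0.15 without AbPP antisense 4 and Control 4, and lay close to the filter, with a mean of 4.29. Neu1, the lysosomal sialidase, differed by 0.00. Gaa, which degrades glycogen and is lost in Pompe disease, differed by 0.21 on a probe set of the kind that may bind related transcripts, or by 0.05 without those arrays, and by 0.26 on a second probe set. Man2b1, an alpha-mannosidase, differed by 0.15, or by 0.07 without those arrays.

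Between the lines no glycosidase passed the threshold, and several values moved with Control 4. Glb1 read 8.21, 7.82, 7.995 and 7.88 log2 in SAMP8 against 8.06, 7.24, 7.52 and 8.19 in Control mice, a difference of 0.22 (SE 0.19, adjusted p = 0.999), or 0.37 (adjusted p = 0.851) without Control 4 and AbPP antisense 4. Neu1 read 8.22, 8.24, 8.26 and 8.25 log2 in SAMP8 against 8.004, 8.32, 8.14 and 7.62 in Control mice, a difference of 0.22 (SE 0.13, adjusted p = 0.999), or 0.09 without Control 4. Random antisense lay below SAMP8 for Neu1 on every array, at 8.19, 8.11, 8.18 and 8.21, with a difference of -0.07 (adjusted p = 1). Gla read 5.93, 6.27, 5.67 and 5.97 in Random antisense mice against 6.07, 6.02, 6.10 and 6.22 in SAMP8. That difference of -0.14 (SE 0.14) lay within the spread of the arrays.

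The sulfatases remove sulfate groups from lipids and glycosaminoglycans. Arsa, which degrades the myelin lipid sulfatide, averaged 9.14 ± 0.50 log2 (SD, n = 4) in AbPP antisense mice and 9.10 ± 0.01 in Random antisense mice, a difference of 0.04, or -0.18 without AbPP antisense 4 and Control 4. Galns, which acts on keratan sulfate, averaged 5.67 ± 0.52 and 5.35 ± 0.24 in the same 2 groups. Arsb, which acts on dermatan sulfate, read 10.76, 10.78, 10.62 and 10.74 in Random antisense mice against 10.79, 10.51, 10.66 and 10.60 in SAMP8, a difference of 0.09 (SE 0.15). SAMP8 minus Control was -0.10 for Arsb with all arrays and -0.26 without Control 4, which read 10.25 where Controls 1 to 3 read 10.94, 10.94 and 10.82.

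Among the genes of lipid breakdown and cholesterol export, Psap encodes prosaposin, the precursor of the saposins that present lipids to several hydrolases. Psap read 13.66, 13.56, 13.69 and 13.76 log2 in AbPP antisense mice, 13.82, 13.80, 13.82 and 13.78 in Random antisense mice, and 13.79, 13.75, 13.83 and 13.89 in SAMP8. AbPP antisense lay below Random antisense on all arrays, and AbPP antisense 4 overlapped SAMP8. The differences were -0.14 (SE 0.09, adjusted p = 0.537) and -0.15 (SE 0.09, adjusted p = 0.432).

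The second probe set of Psap showed the same direction with a larger size. It read 12.47, 12.59, 12.97 and 11.56 log2 in AbPP antisense mice, 13.21, 13.12, 13.16 and 13.09 in Random antisense mice, and 13.12, 13.14, 13.19 and 13.29 in SAMP8. All 4 AbPP antisense arrays lay below the 12 others. The differences were -0.75 (adjusted p = 0.198) from Random antisense and -0.79 (adjusted p = 0.126) from SAMP8. Without AbPP antisense 4 and Control 4 they were -0.47 (adjusted p = 0.062) and -0.51 (adjusted p = 0.033). The second was the single call among 27 further probe sets of these genes in any comparison. In that fit against SAMP8, 1.71% of 23741 probe sets were called, and the distance of 1 call in 27 from this background was not tested. The probe set was picked out after its values were seen.

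The second probe sets of Ctsb, Psap and Ppt1, and one of Lamp2 at -0.53 from Random antisense, each had AbPP antisense 4 as the lowest of 16 arrays. On that array the 3′ minus 5′ signal of the control transcripts was the highest of the 16, as given above. AbPP antisense 3, with the lowest beta-actin value of its group at 1.21, was the highest of the group for all 4 probe sets. The part of this measure in the differences was not tested.

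Npc1, the membrane protein that exports cholesterol from lysosomes, read 8.27, 8.38, 8.34 and 8.44 log2 in SAMP8 against 8.27, 9.005, 8.61 and 9.29 in Control mice. SAMP8 overlapped Control through Control 1. The difference was -0.44 (SE 0.23, adjusted p = 0.999), and -0.27 without Control 4. In AbPP antisense mice it read 8.29, 8.28, 8.23 and 7.28, and AbPP antisense 4 was the lowest of the 16 arrays.

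Npc2, the soluble partner that hands cholesterol to Npc1, read 10.42, 10.51, 10.55 and 10.45 log2 in Random antisense mice, below 10.63, 10.62, 10.58 and 10.59 in SAMP8 on every array. The difference was -0.12 (SE 0.30, adjusted p = 1). Smpd1, the acid sphingomyelinase, read 10.73, 10.69, 10.57 and 10.81 in SAMP8 against 10.65, 10.56, 10.49 and 10.31 in Control mice. That difference was 0.20 (SE 0.12, adjusted p = 0.999), or 0.13 without Control 4.

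Asah1, the acid ceramidase, and Lipa, which splits cholesteryl esters, overlapped between groups with all arrays. Asah1 averaged 9.78 ± 0.38 log2 (SD, n = 4) in AbPP antisense mice and 9.67 ± 0.07 in Random antisense mice. The lowest array was AbPP antisense 4 at 9.29, and without it the other 3 lay above all Random antisense arrays, and the difference of 0.10 became 0.26 (adjusted p = 0.246). Lipa averaged 7.61 ± 0.54 and 7.51 ± 0.14 in the same 2 groups.

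The 5 listed lysosomal membrane proteins each had a higher mean in AbPP antisense than in Random antisense mice, with and without the arrays that stand apart. Single arrays of the 2 groups overlapped for each gene. AbPP antisense minus Random antisense was positive for all 5, with a median of 0.15 log2, and positive for all 5 without AbPP antisense 4 and Control 4, with a median of 0.12. Against SAMP8 all 5 were also positive, with a median of 0.06. No gene of the 5 passed the adjusted threshold, and the comparisons share the AbPP antisense arrays. Over all genes 56.8% of differences from Random antisense were positive. The 5 do not stand for the class. Of 18 other lysosomal membrane proteins and transporters tested, 12 had a negative difference from Random antisense, with a median of -0.07.

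Cln3, a membrane protein mutated in juvenile neuronal ceroid lipofuscinosis, had the largest difference of the 5. It read 6.35, 6.31, 6.04 and 6.96 log2 in AbPP antisense mice, and 5.99, 5.91, 6.02 and 6.07 in Random antisense mice. It read 5.88, 6.01, 5.84 and 5.98 in SAMP8 and 5.65, 6.03, 5.47 and 5.49 in Control mice. AbPP antisense lay above SAMP8 on all arrays and overlapped Random antisense only through array 3.

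The Cln3 differences were 0.41 (SE 0.17, adjusted p = 0.359) from Random antisense and 0.48 (SE 0.17, adjusted p = 0.223) from SAMP8. Without AbPP antisense 4 and Control 4 they were 0.23 and 0.30. The second probe set of Cln3 gave 0.06 and 0.05, or 0.20 and 0.19 without those arrays. SAMP8 minus Control was 0.27 (SE 0.17, adjusted p = 0.999) on the first probe set and 0.40 on the second, and Random antisense minus SAMP8 was 0.07.

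Lamp1 and Lamp2 encode the most abundant glycoproteins of the lysosomal membrane. Lamp1 read 11.95, 12.30, 11.71 and 12.18 log2 in AbPP antisense mice and 11.95, 11.92, 11.88 and 11.79 in Random antisense mice, with a difference of 0.15 (SE 0.12). Random antisense lay below SAMP8 on every array, where Lamp1 read 12.03, 11.96, 11.98 and 11.95, with a difference of -0.10 (SE 0.12, adjusted p = 1). Lamp2, whose protein takes up substrates in chaperone-mediated autophagy, differed by 0.33 between AbPP antisense and Random antisense on its brightest probe set. On 3 further probe sets it differed by -0.53, 0.01 and 0.05, so no direction can be given for Lamp2.

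Scarb2, a membrane glycoprotein of lysosomes, averaged 11.46 ± 0.12 log2 (SD, n = 4) in AbPP antisense mice and 11.38 ± 0.05 in Random antisense mice. Mcoln1, a cation channel that releases calcium from lysosomes, averaged 9.53 ± 0.30 and 9.39 ± 0.03 in the same 2 groups.

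Tfeb, the transcription factor of the lysosomal gene network, read 6.87, 7.23, 6.75 and 6.89 log2 in AbPP antisense mice and 7.06, 6.93, 6.63 and 6.91 in Random antisense mice. It read 6.78, 6.80, 6.83 and 6.66 in SAMP8 and 6.89, 6.71, 6.75 and 6.80 in Control mice. The groups overlapped throughout, and AbPP antisense minus Random antisense was 0.05 (SE 0.12). AbPP antisense minus SAMP8 was 0.17 (SE 0.12, adjusted p = 0.546) and Random antisense minus SAMP8 was 0.11, or -0.00 if Random antisense 1 is counted as untreated, as its treatment label has it. Array levels say nothing of where the protein lies in the cell.

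The 10 genes with TCACGTG in their promoter were set beside the 19 tested genes with a promoter and without it. AbPP antisense minus Random antisense had a median of 0.06 log2 with the motif and 0.07 without it. AbPP antisense minus SAMP8 had medians of 0.05 and 0.04 in that order, Random antisense minus SAMP8 -0.04 in both, and SAMP8 minus Control 0.08 and -0.09. These medians are a description with no test, and those of SAMP8 minus Control rest in part on Control 4. Gusb, Man2b1, Grn, Ctsz, Npc2 and Lamp2, each over 1 log2 higher on Control 4, all lack the motif. Their SAMP8 minus Control differences were -0.94, -0.54, -0.24, -0.26, -0.24 and -0.09. Without Control 4 and AbPP antisense 4 they were -0.36, -0.07, 0.22, 0.20, 0.17 and 0.18. The medians were not taken without those arrays, so no line difference linked to the motif can be read from them.

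**Figure D3:**
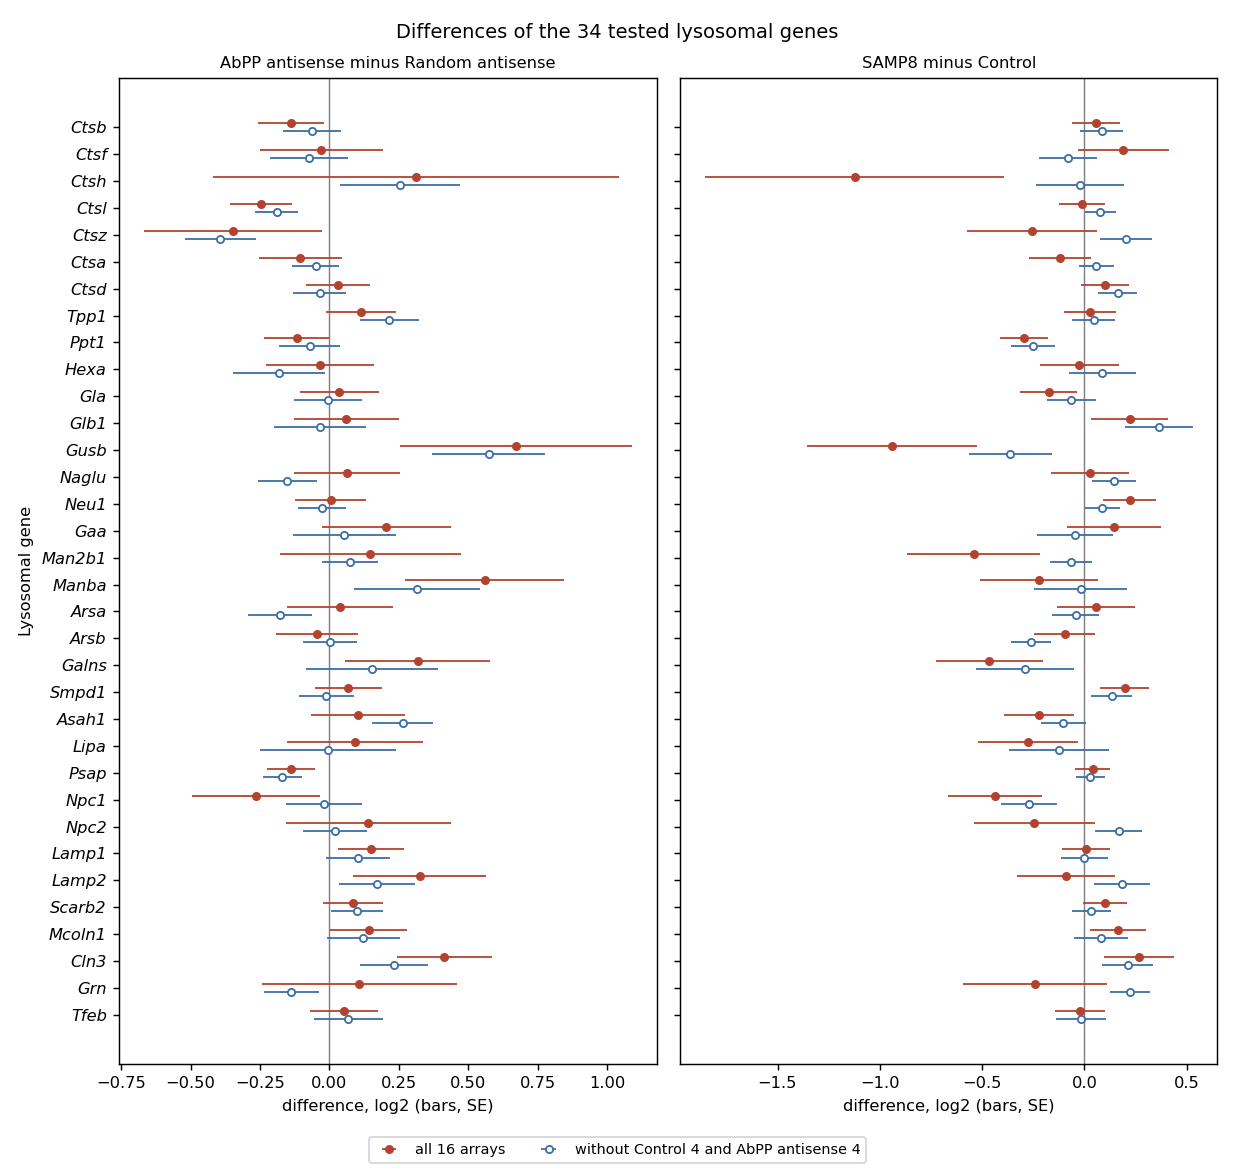
Difference in log2 of the 34 tested lysosomal genes for AbPP antisense minus Random antisense (left) and SAMP8 minus Control (right); filled points use all 16 arrays, open points leave out AbPP antisense 4 and Control 4, and bars are SE. Most points lie within 0.5 of 0, and on the right Ctsh, Gusb and Man2b1 sit far below 0 only with all arrays.

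Control 4 had the highest value of the 16 arrays for 15 of the 34 genes (44.1%), against 18% of all genes, and the lowest for 8 (23.5%), against 31.1%. Set against the mean of Controls 1 to 3, Control 4 was over 1 log2 higher for 7 of the 34 genes (20.6%), against 7.77% of all 11464 genes, and over 1 lower for Ctsf, at -1.08. These values concern 1 mouse and carry no test.

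The 7 genes were Ctsh at 4.41 log2, Gusb at 2.31, Man2b1 at 1.90, Grn at 1.86, Ctsz at 1.84, Npc2 at 1.65 and Lamp2 at 1.09. Grn, for progranulin, a secreted protein that is cut into granulins in lysosomes, read 10.10, 10.03, 10.16 and 11.95 on Controls 1 to 4. Ctsh read 8.12, 7.03, 7.80 and 12.06 there. Leukocyte markers stood high on the same array: Ptprc, which encodes the leukocyte surface protein CD45, read 12.50 log2 on Control 4 and 5.07 to 6.90 on the other 15 arrays.

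The leukocyte markers Rac2, Cytip and Lsp1 passed 4 log2 on too few arrays to be tested. In whole tissue, more cells of a type and more RNA per cell cannot be told apart, and the part of leukocyte RNA in these lysosomal values was not tested. Without Control 4, Ctsh differed by -0.02 between SAMP8 and Control, against -1.12 with it. Grn differed by 0.22, against -0.24 with it, and Man2b1 by -0.07, against -0.54.

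AbPP antisense 4 lay over 1 log2 from the mean of AbPP antisense 1 to 3 for 0 of the 34 brightest probe sets. It did so for 12.5% of all genes. The furthest of the 34 were Npc1 at -0.98 and Grn at 0.98. Some further probe sets lay lower on this array. One of Lamp2 read 7.62, against 9.02 to 9.40 on AbPP antisense 1 to 3, and one of Ctsb 10.31, against 11.61 to 12.09. One of Gusb read 5.38, against 6.35 to 7.22, and one of Arsb 4.16, against 5.56 to 6.15. How many further probe sets lay that far, in either direction, was not counted. Grn averaged 10.37 ± 0.50 log2 (SD, n = 4) in AbPP antisense mice and 10.26 ± 0.13 in Random antisense mice, with AbPP antisense 4 at 11.10.

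**Figure D4:**
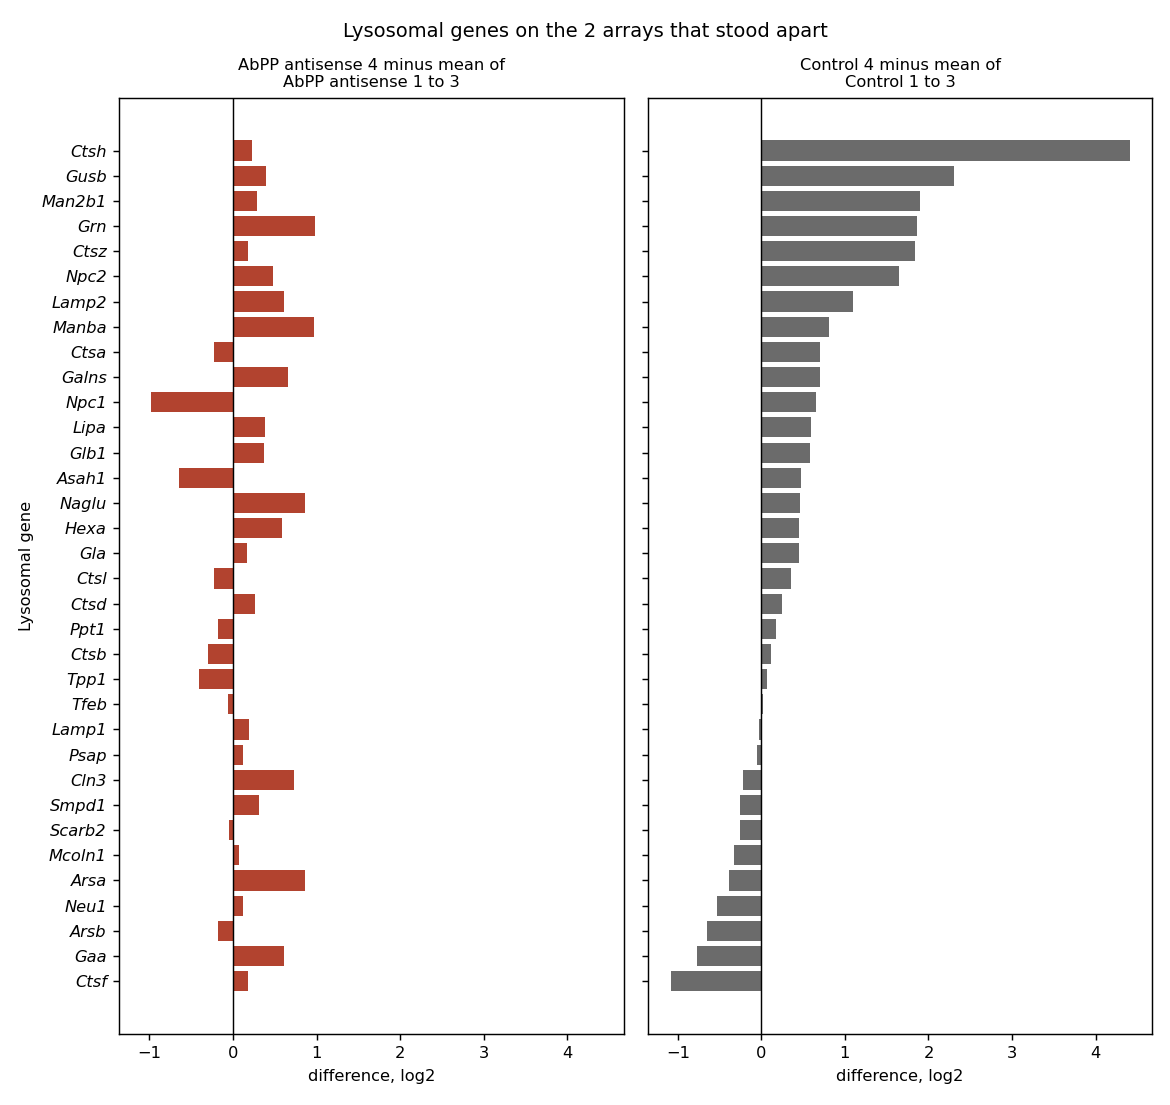
Value of each tested lysosomal gene on AbPP antisense 4 minus the mean of AbPP antisense 1 to 3 (left) and on Control 4 minus the mean of Controls 1 to 3 (right), in log2, with genes in the order of the right panel. On Control 4, 7 genes lie over 1 log2 above their group, led by Ctsh at 4.41. On AbPP antisense 4 all 34 brightest probe sets lie within 1.

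Microglial markers lay beside the AbPP antisense values. Of 14 microglia markers, 12 had a positive difference of AbPP antisense minus Random antisense, with a median of 0.35 log2, and 14 of 14 were positive without AbPP antisense 4 and Control 4, with a median of 0.49. Choroid plexus markers had 7 of 7 negative with a median of -2.40. The hippocampal neuron markers had 6 of 7 negative with a median of -0.48, or 4 of 7 with a median of -0.24 without the 2 arrays. On AbPP antisense 1 to 4 their median deviation from each marker's own mean was 0.84, -1.20, 0.89 and -1.11 log2. It was -0.06 to 0.29 in Random antisense mice. Gusb, Manba, Gaa, Arsa and Lamp1 were highest of their group on AbPP antisense 2 and 4. So were Ctsf, Ctsd, Hexa, Naglu, Man2b1, Lipa, Npc2, Lamp2, Mcoln1 and Tfeb. The share of all genes with this split was not counted, and leaving out AbPP antisense 4 keeps AbPP antisense 2. The part of these marker lists in the lysosomal values was not tested. Cd68, a lysosomal membrane protein of macrophages and microglia, read 6.73, 6.47, 6.73 and 6.03 log2 in AbPP antisense mice, against 5.85, 6.02, 6.02 and 6.02 in Random antisense mice. That difference was 0.51 (SE 0.56, adjusted p = 0.754), or 0.66 (adjusted p = 0.089) without AbPP antisense 4 and Control 4. Cd68 was picked out after its values were seen.

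The wider lysosomal system was read from 4 lists of 81 further genes, of which 71 were tested: other hydrolases and activators, other membrane proteins and transporters, subunits of the proton pump, and genes of sorting and transcriptional control. In AbPP antisense against Random antisense 0 of the 71 passed the threshold, against 0.0837% of probe sets. The hydrolases had 11 of 20 positive with a median of 0.06 log2, and the transporters 6 of 18 with a median of -0.07. The proton pump, which acidifies the lysosome, had 6 of 17 positive with a median of -0.09, and the sorting genes 8 of 16 with a median of 0.02.

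Ctso and Ctns had the smallest p values in that comparison. Ctso, for cathepsin O, read 9.47, 9.69, 9.38 and 9.38 log2 in AbPP antisense mice, against 9.03, 8.94, 9.09 and 9.02 in Random antisense mice. All AbPP antisense arrays lay above all Random antisense arrays, and the difference was 0.46 (SE 0.12, adjusted p = 0.148). Ctns, the lysosomal cystine exporter, read 6.55, 6.35, 6.59 and 6.13 in AbPP antisense mice, against 6.11, 6.09, 6.10 and 6.10 in Random antisense mice, a difference of 0.31 (SE 0.11, adjusted p = 0.29). Both passed the threshold without AbPP antisense 4 and Control 4, at 0.49 (adjusted p = 0.0475) and 0.40 (adjusted p = 0.0403), and Ctns also passed against SAMP8, at 0.42 (adjusted p = 0.0265). They were the only genes of the 4 lists to pass in those fits of the AbPP antisense comparisons. The backgrounds there were 0.838% of probe sets against Random antisense and 1.71% against SAMP8. The distance of these few calls from the backgrounds was not tested.

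In the other direction, Lmbrd1, a protein of vitamin export from lysosomes, differed by -0.27 log2 between AbPP antisense and Random antisense (adjusted p = 0.393). Gnptab, the enzyme that makes the mannose phosphate tag of lysosomal hydrolases, differed by -0.28 (adjusted p = 0.426). Against SAMP8 the lists had 0 calls, beside 0.289% of probe sets. The smallest p values there were those of Ctns at 0.32 and Ctso at 0.31, and of Lmbrd1 at -0.42 and the proton pump subunit Atp6v1h at -0.41. In Random antisense against SAMP8 there were also 0 calls, and Dnase2a at 0.38, Nagpa at 0.20, Sgsh at -0.34 and Ctso at -0.15 had the smallest p values.

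Between the lines 1 of the 71 genes was called, against 0.36% of probe sets. Galc, for the hydrolase of the myelin lipid galactosylceramide, read 8.59, 8.71, 8.52 and 8.46 log2 in SAMP8, against 2.33, 6.59, 4.46 and 2.28 in Control mice. Its 2 probe sets went opposite ways, with SAMP8 minus Control at 4.65 (adjusted p = 0.00328) on this one and -1.93 (adjusted p = 0.00013) on the other, so no direction can be given for Galc. The next smallest p values were those of Slc11a2, an iron transporter, at 0.50 (0.32 without Control 4, its lowest array at 5.51), of Lgmn, the asparaginyl protease that matures cathepsins, at -0.29, and of Ctss, the cathepsin of microglia and antigen-presenting cells, at -0.60. Ctss read 13.24 on Control 4 and 11.26 to 11.95 on the other 15 arrays, and without Control 4 and AbPP antisense 4 its difference was -0.21.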

How the data were processed

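The values are log2 values per probe set that the authors made with GCRMA (a background correction, quantile normalization and summary of Affymetrix probes; version not given in the sources used here) and deposited as 1 table, per the submitters' processing notes. Scanned intensities were not used here, so the background and normalization steps were not repeated. All 16 columns of the table were used. Sample titles gave the groups and replicate numbers. For Random antisense 1 the treatment field says none, while title, source and description place it with the random oligonucleotide, as done here; an alternative counted it as untreated.

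Of 45101 probe sets, 64 Affymetrix controls were removed. Of the remaining 45037, 932 have several gene symbols and 9160 have none in GEO's annotation of the platform, and no gene was named from them. A probe set was tested where it was over 4 log2 on at least 4 arrays, which left 23905. The probe set of highest mean stood for its gene, and 76 probe sets name the 35 lysosomal genes. Levels of different probe sets were not compared, because probes differ in affinity. Groups were compared in limma (one-way layout of 4 groups, 12 residual and 2.63 prior degrees of freedom). The p values were adjusted by Benjamini-Hochberg over all tested probe sets of a comparison. Two-sided exact permutation tests used the 70 splits of 8 arrays, and 0.0286 is their smallest p. The fit was tested on simulated data.

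The lysosomal genes, the further lists and the tests were chosen with earlier results of these data known. Values on every array are given for the 3 genes with the largest positive and the 3 with the largest negative moderated statistic in each comparison, and, for the further lists, called genes are named and otherwise the 2 of smallest p in each direction. Gene names were chosen outside this rule for Ctsz, Npc2, Ctsh, Grn, Hexa, Glb1, Asah1, Cd68 and second probe sets. The number of arrays limits the precision. Separate mice were used, 1 per array, and the labels give no batch. Promoter sequences came from RefSeq tables on GRCm38.p6. Some genes of the further lists are not reported here, and protein sequences were not used here. Tests ran in limma 3.58.1 under R 4.3.3, and figures in matplotlib 3.10.9 under Python 3.11.15.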

Additional observations from a re-analysis of the deposited data

Results flagged for a closer look

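In 13 of the 140 combinations of a gene and a group, the highest or lowest array lay apart from the other 3 by more than Dixon's 95% critical share of the group's range, where chance gives about 1 in 20. Of these, 5 were on Control 4. Its values were the highest of the group for Ctsa at 10.84 log2 (others 10.12 to 10.15), Gusb at 9.11 (6.66 to 7.003), Man2b1 at 10.46 (8.48 to 8.62) and Grn at 11.95 (10.03 to 10.16). For Gaa, Control 4 was the lowest at 10.71 (11.44 to 11.53). On AbPP antisense 4, Npc1 was the lowest at 7.28 (8.23 to 8.29).

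The other 7 lay on further arrays, and most have a narrow group. Random antisense 1 was the lowest of its group for Ctsh at 7.50 (7.81 to 7.84) and the highest for Tpp1 at 10.28 (10.21 to 10.21). Random antisense 3 was the lowest for Glb1 at 7.64 (7.92 to 7.95) and for Gaa at 11.30 (11.42 to 11.44). Random antisense 4 was the lowest for Gusb at 6.11 (6.51 to 6.58). AbPP antisense 2 was the highest for Ppt1 at 10.66 (10.20 to 10.26), and AbPP antisense 1 the lowest for Ctsk, below the filter, at 2.34 (3.04 to 3.08).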

How the results depend on the processing

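Counts of lysosomal genes past the threshold stayed at 0 in the 4 comparisons under every alternative run: no filter or a filter at 6 log2, arrays centred on their median, an intensity trend, the mean of all probe sets of a gene, only the 8 arrays compared, Random antisense 1 counted as untreated, a replicate block, and each array left out. In the F test the count was 0 to 1 when arrays were left out in turn. It was 1 without AbPP antisense 2 (Ppt1) and 1 without AbPP antisense 3 (Cln3). All 100 alternative medians over the genes lay within 0.12 log2 of the reported ones, the SD of the array medians. That bound is larger than each reported median, so it cannot decide whether a median kept its sign. Left-out arrays gave medians of -0.00 to 0.14 for AbPP antisense minus Random antisense, -0.07 to 0.10 for AbPP antisense minus SAMP8, -0.06 to -0.04 for Random antisense minus SAMP8 and -0.06 to 0.03 for SAMP8 minus Control.

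Of 600 values of the 24 named gene differences, 598 kept their sign and their side of the threshold. Tfeb in Random antisense minus SAMP8 became -0.0020 with Random antisense 1 counted as untreated, by the move of that array. Ppt1 in SAMP8 minus Control became 0.11 with the mean of its probe sets, which disagree. The count of genes whose groups do not overlap, added after the data were seen, was 3 in SAMP8 against Control without AbPP antisense 4 and Control 4, against 1 with all arrays.

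Replicate numbers recur across groups. Deviations of arrays with the same number correlated between -0.27 and 0.24 over 24 pairs, with 9 over 0.1. Arrays of different numbers were not set beside them, so these values cannot decide whether the numbers pair the mice. The fit with a replicate block called 0 genes in each comparison and in the F test, with medians of 0.07, 0.04, -0.05 and -0.02 as without it. With 4 arrays per group and a median SE of 0.18 log2, small differences in these genes could not be detected.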
